A study of Rattus norvegicus with 8 samples.

Results

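Among 8 kidney arrays of rats given the same stone-forming treatment, 4 carried a strong signal of Cyp24a1, and within those 4 the injury gene Havcr1 was far higher on 1 array of each kidney region than on the other. The arrays were chosen by measured values: an array entered if Cyp24a1 was above 8 log2 intensity, and it was placed on the higher side if Havcr1 was above 10 log2 intensity and on the lower side if it was below. The rule took 4 of the 8 arrays, namely cortex replicate 4 and medulla replicate 4 on the higher side (the Havcr1-higher arrays) and cortex replicate 3 and medulla replicate 3 on the lower side (the Havcr1-lower arrays). Cyp24a1 was 9.97 on the weakest array taken and 6.21 on the strongest array left out. Havcr1 was 11.27 and 11.32 on the Havcr1-higher arrays of cortex and medulla, and 7.54 and 8.95 on the Havcr1-lower arrays. Cyp24a1 itself differed little across this split, by 0.47 log2 in cortex and -0.11 in medulla.

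The tissue was kidney of male Wistar rats aged 10 weeks, which all received ethylene glycol each day together with vitamin D every second day for 1 week. Total RNA from 4 cortex and 4 medulla samples was hybridised to Affymetrix whole-transcript arrays, 1 array per sample. All 8 arrays share this treatment label, and no label records a grade of injury, so the higher and lower sides are a split of these arrays by Havcr1 and not groups of the study. Ethylene glycol is broken down to oxalate, which with calcium forms crystals in the tubules. Replicate numbers follow the order of the samples within a region and do not pair a cortex sample with a medulla sample.

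Havcr1 encodes kidney injury molecule 1, a surface receptor that proximal tubule cells make when damaged and that is nearly absent from healthy tubules. Cyp24a1 encodes the hydroxylase that degrades active vitamin D and is switched on by it, so that it serves as a readout of vitamin D signalling. Injured tubule cells are known to lose transport and segment genes, to express keratins, cytokines and growth factors, and in part to enter the cell cycle.

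Because the split used these arrays' own values, the differences below are descriptions with no test. Each region has 1 array on each side, which leaves no replicate error. The labels do not say whether the cortex and the medulla samples with high Havcr1 came from the same animal, so the regions are not known to be independent. The regional labels were also weakly visible in marker genes: the mean over 19 proximal tubule genes, which belong to cortex and outer stripe, lay between 8.76 and 9.29 log2 intensity on the cortex arrays and between 8.61 and 9.10 on the medulla arrays. The mean over 7 urea and osmolyte genes, which mark the inner medulla, lay between 6.24 and 6.96 in cortex and between 6.95 and 7.74 in medulla.

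In cortex, 168 of 18164 genes (0.925%) were at least 2-fold higher on the Havcr1-higher array and 150 (0.826%) at least 2-fold lower. The medulla arrays gave 127 genes (0.699%) higher and 86 (0.473%) lower. Both regions passed 2-fold in the same direction for 87 genes higher (0.479% of all genes) and 52 lower (0.286%), and for 0 genes (0.0%) in opposite directions. The 87 genes were 51.8% of those higher in cortex and 68.5% of those higher in medulla, and the 52 were 34.7% of those lower in cortex and 60.5% of those lower in medulla. Where a gene passed in 1 region alone, the other region nearly always had the same sign: this held for 81 of 81 genes higher in cortex, 39 of 40 higher in medulla, 94 of 98 lower in cortex and 32 of 34 lower in medulla. Over all genes the cortex and medulla differences had a Pearson r of 0.702, a description across 18164 genes that share the arrays and their normalization. The median difference over all genes was -0.01 log2 in cortex and 0.00 in medulla.

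**Figure D1:**
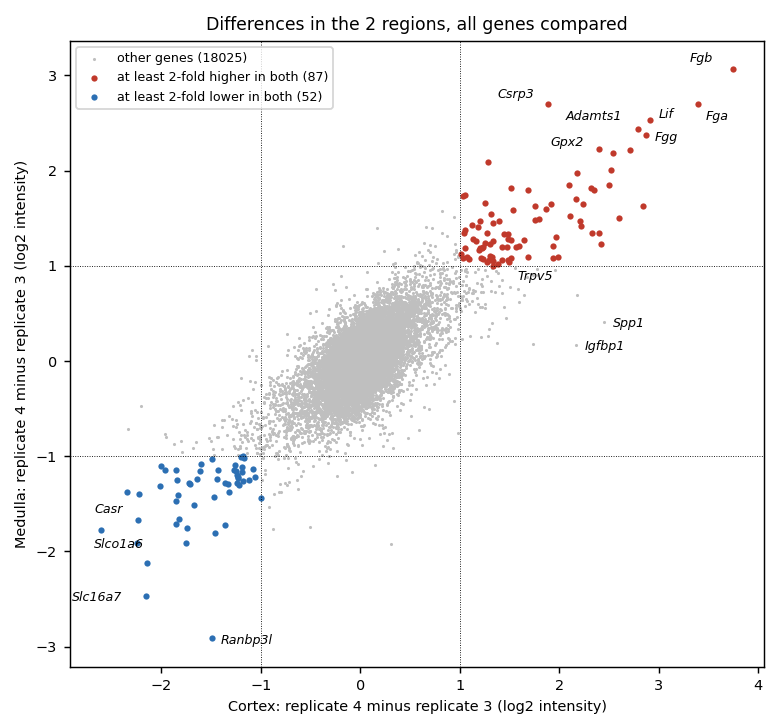
Each point is a gene, with the cortex difference (replicate 4 minus replicate 3, log2 intensity) on the horizontal axis and the medulla difference on the vertical axis, and dotted lines at 2-fold. The 87 red and 52 blue genes lie beyond 2-fold in both regions, the opposite corners are empty, and Spp1 and Igfbp1 stand out in cortex alone.

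The fibrinogen chains led the shared genes. Fibrinogen is the clotting precursor that the liver secretes as a hexamer of 2 copies each of the chains encoded by Fga, Fgb and Fgg, and injured kidney epithelium is known to make it too. Fgb measured 5.06, 5.27, 6.15 and 9.89 log2 intensity across the cortex arrays in replicate order and 5.26, 5.05, 6.53 and 9.59 across the medulla arrays, so that the Havcr1-higher array exceeded the Havcr1-lower array 13.4-fold in cortex and 8.37-fold in medulla. Fga stood at 6.61 on the Havcr1-lower and 10.01 on the Havcr1-higher cortex array, and at 7.04 and 9.75 in medulla, which is 10.6-fold and 6.51-fold. For Fgg the same pairs were 4.77 and 7.64 in cortex, against 5.49 and 7.86 in medulla, or 7.32-fold and 5.18-fold. In each region the Havcr1-lower array already lay above replicates 1 and 2 for all 3 chains, by far less than the Havcr1-higher array did. Genes that neighbour this cluster in the rat RefSeq annotation, chosen after their values were seen, differed less: the splicing factor gene Plrg1 by 0.20 and 0.18 log2, Rbm46 by 0.06 and 0.06, and Lrat, which makes retinyl esters, by 0.87 and 0.44. Of the other coagulation genes only tissue factor (F3), the initiator of clotting, passed 2-fold in both regions, with 1.76 and 1.48. The list of 18 measured coagulation genes therefore held 4 that were higher in both regions and 0 lower, while its median difference was 0.02 in cortex and 0.02 in medulla. Over all genes 0.479% were higher and 0.286% lower in both regions, the shares to set beside this and every list count below.

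The upstream sequences of the fibrinogen genes are shown because the 3 genes lie side by side and differed together, and that of Il11 because it belongs to the cytokine family described next. They are the 250 bases before an annotated transcript start of each gene, written 5′ to 3′ on the gene's own strand, from RefSeq in build GRCr8. For Fgg the gene model of the same annotation begins further upstream, inside the window shown, and Fga has a second annotated start just downstream. Capitals mark matches on either strand to the letters TGANTCA (AP-1), TTGCNNAA (C/EBP) or TTCNNNGAA (STAT).
Fgb, chr2:170700876-170701125, minus strand: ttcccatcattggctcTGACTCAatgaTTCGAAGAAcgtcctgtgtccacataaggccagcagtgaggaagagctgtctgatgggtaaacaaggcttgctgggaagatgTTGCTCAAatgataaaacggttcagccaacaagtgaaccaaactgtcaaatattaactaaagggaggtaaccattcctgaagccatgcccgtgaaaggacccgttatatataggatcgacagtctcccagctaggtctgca
Fga, chr2:170671919-170672168, plus strand: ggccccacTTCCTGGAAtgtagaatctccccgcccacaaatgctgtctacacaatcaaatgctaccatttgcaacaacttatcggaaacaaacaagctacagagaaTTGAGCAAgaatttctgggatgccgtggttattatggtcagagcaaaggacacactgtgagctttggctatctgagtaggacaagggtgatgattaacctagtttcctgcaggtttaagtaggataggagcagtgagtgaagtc
Fgg, chr2:170652833-170653082, plus strand: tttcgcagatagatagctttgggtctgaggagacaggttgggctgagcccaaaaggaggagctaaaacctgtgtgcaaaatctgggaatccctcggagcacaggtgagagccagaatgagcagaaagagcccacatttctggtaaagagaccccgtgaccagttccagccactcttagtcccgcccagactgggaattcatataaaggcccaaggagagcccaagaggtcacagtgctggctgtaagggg
Il11, chr1:78098372-78098621, plus strand: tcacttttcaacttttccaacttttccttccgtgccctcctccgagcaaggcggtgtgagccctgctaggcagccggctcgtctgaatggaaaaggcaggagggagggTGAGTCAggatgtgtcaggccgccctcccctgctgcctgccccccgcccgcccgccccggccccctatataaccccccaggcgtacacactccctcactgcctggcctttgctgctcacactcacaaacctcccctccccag

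Fgb held all 3 kinds of match, Fga a C/EBP and a STAT match, Il11 an AP-1 match, and these letters are not in the Fgg window. Of the 87 genes higher in both regions, 71 had a promoter in the table, a window of 300 bases that also reaches a little past the start. The AP-1 letters were in 10 of these 71 (14.1%) against 6.41% of the 14563 promoters of all genes compared, and in 0 of the 42 promoters of genes lower in both regions. C/EBP letters were in 19.7% of the higher genes, 14.3% of the lower genes and 9.91% of all. For the STAT letters the shares were 11.3%, 7.14% and 7.79%. The serum response element was searched only in a fixed spelling with no free positions, and its other spellings were not searched. That spelling was in 8 of the 14563 promoters of all genes compared (0.0549%) and in 0 of either set. Letters this rare would most likely be missing from 71 or 42 promoters anyway, so no conclusion on serum response elements is drawn. The matches are a description of the letters and not of factor binding.

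Some cytokines of the IL-6 family and genes of their signalling formed a second group. These cytokines act through receptors that share the gp130 subunit and turn on STAT3, whose target Socs3 feeds back on the pathway. Lif, a cytokine of this family, was at 5.05, 4.98, 5.14 and 8.05 across the cortex arrays and at 4.96, 4.99, 5.89 and 8.42 across the medulla arrays, 7.52-fold and 5.79-fold higher on the Havcr1-higher array. The feedback inhibitor Socs3 measured 5.37, 5.49, 5.33 and 7.51 in cortex, with 5.51, 5.52, 6.30 and 8.00 in medulla. In cortex the Havcr1-lower array was level with replicates 1 and 2 for both genes, while in medulla it already stood above them. Osmr, the oncostatin M receptor subunit, differed by 2.40 log2 in cortex and 1.34 in medulla, and the ligands Il11 and Clcf1 by 1.04 and 1.35 and by 1.21 and 1.08. Of the 14 measured genes of this list, 5 passed 2-fold higher in both regions and 0 lower, against 0.479% and 0.286% of all genes. The list's median difference was 0.48 in cortex and 0.31 in medulla. In both regions 10 of the 14 had a positive difference and 2 a negative one. With a pseudocount of 16 the count was 3, as Il11 and Clcf1 no longer passed.

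Other secreted mediators that passed in both regions came from several families. Il24 and Il19, cytokines related to IL-10, differed by 1.51 and 1.81 and by 1.29 and 2.10, each from a level near 5 log2 intensity. Complement component C3 was at 6.08 and 8.32 on the Havcr1-lower and Havcr1-higher cortex arrays, with 7.07 and 8.72 for medulla, and was the 1 gene of 13 acute phase and complement genes past 2-fold in both regions, with list medians of 0.29 and 0.04. The monocyte attractant Ccl2 differed by 1.99 and 1.09, although on the Havcr1-lower cortex array it was the lowest of the region, at 5.71 against 7.11 and 6.51 on replicates 1 and 2. Of 21 chemokine and inflammatory genes 2 were higher in both regions and 0 lower, with medians of 0.30 and 0.17. Of the leukocyte markers, 0 of 19 passed in both regions, where the share over all genes was 0.479% higher and 0.286% lower. Their median was 0.06 in cortex and 0.15 in medulla, and their mean level went from 5.50 to 5.73 log2 in cortex and from 5.90 to 6.07 in medulla. Whether leukocytes had a part in the cytokine differences was not tested. In whole tissue, more cells of a type and more RNA per cell cannot be told apart.

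Genes that remodel matrix and cell shape were among the higher genes. Adamts1, a secreted protease that cuts proteoglycans, measured 6.22, 6.95, 6.73 and 9.53 in cortex, with 6.29, 6.88, 7.24 and 9.68 in medulla. The metalloproteinase inhibitor Timp1 was at 5.94 and 8.78 on the Havcr1-lower and Havcr1-higher cortex arrays and at 7.48 and 9.11 in medulla, where the Havcr1-lower array was already far above the 6.13 and 5.73 of replicates 1 and 2. Cemip, which takes part in hyaluronan breakdown, differed by 2.10 and 1.85. Of 15 matrix proteases and inhibitors 2, Adamts1 and Timp1, were higher in both regions and 0 lower, with medians of 0.04 and 0.20. The epithelial keratin Krt18 differed by 1.76 and 1.63, the actin crosslinker Actn1 by 1.87 and 1.60, non-muscle myosin Myh9 by 1.45 and 1.33, the tubulin Tubb5 by 1.54 and 1.58, and the membrane-binding annexin Anxa2 by 1.52 and 1.08. Tubulin genes have close copies, which the probes may not separate. The muscle LIM protein gene Csrp3, best known from heart and skeletal muscle, was at 5.01 and 6.90 in cortex, against 5.26 and 7.97 in medulla, while the mean of 6 skeletal muscle genes stayed between 4.98 and 5.11 on all 8 arrays. Of 17 fibroblast and matrix genes 1, the matricellular gene Ccn1 with 1.56 and 1.20, passed in both regions and 0 were lower, and the list's medians were 0.64 and 0.62. The list's mean was 6.74, 6.69, 6.17 and 6.76 across the cortex arrays, so the Havcr1-higher array was level there with replicates 1 and 2 and replicate 3 was low. Ccn1 likewise measured 7.64, 7.06, 6.72 and 8.28 in cortex.

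**Figure D2:**
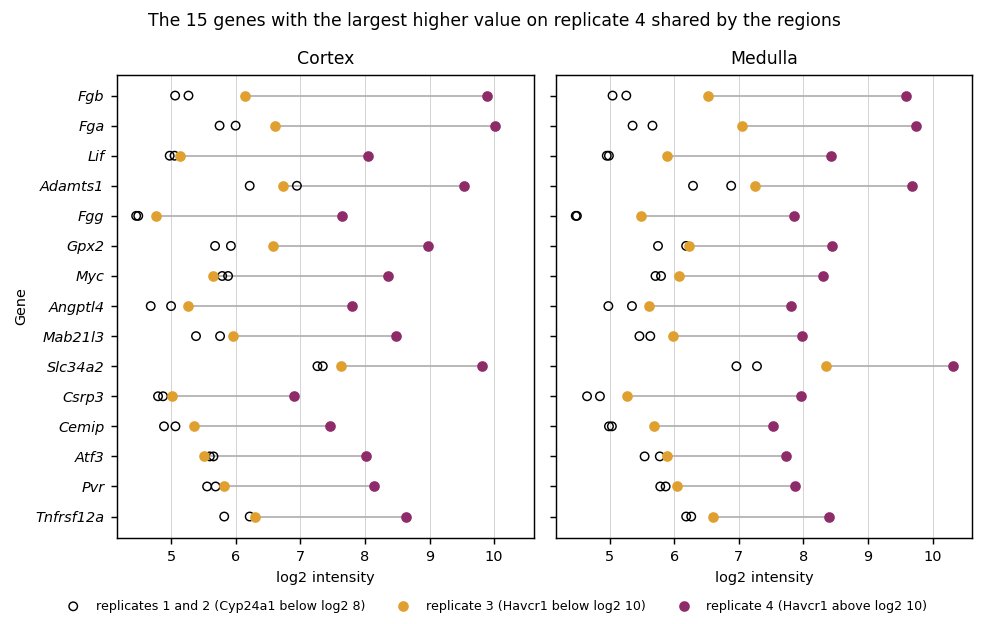
log2 intensity of the 15 genes with the largest shared difference on the higher side, in cortex (left) and medulla (right); open circles are replicates 1 and 2, the orange point is the Havcr1-lower array and the purple point the Havcr1-higher array of the region. For every gene drawn the purple point lies to the right of all others in both panels, with Fgb at 9.89 and 9.59.

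A few transcription factors of the early stress response were among the higher genes. Myc, a driver of growth and ribosome production, measured 5.88, 5.79, 5.64 and 8.35 in cortex, with 5.80, 5.71, 6.08 and 8.29 in medulla. Atf3, a factor of the cellular stress response, differed by 2.50 and 1.85, and Klf6, which is induced early after kidney injury, by 2.33 and 1.34. Myc and Atf3 were flat on the remaining 6 arrays, within 5.51 and 6.08 for both. Of 20 early response factors 3 passed in both regions and 0 were lower, with medians of 0.87 and 0.50, and 18 of 20 had a positive difference in both regions. The AP-1 subunit Jun, chosen after its value was seen, passed in cortex alone, with 1.21 against 0.73 in medulla, and with the mean of its probe sets the cortex value was 0.85, under 2-fold. Cortex replicates 1 and 2, at 7.03 and 6.93, also stood above the 6.38 of replicate 3 for Jun. Among growth factors, the EGF receptor ligand Hbegf differed by 1.49 and 1.28 and the stress cytokine Gdf15 by 1.34 and 1.45; of 17 growth factor genes these 2 were higher in both regions and 1, Egf, was lower, with medians of -0.06 and -0.01.

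Some cell division genes passed 2-fold in both regions. Mki67, the proliferation antigen, was at 6.33 and 7.75 on the Havcr1-lower and Havcr1-higher cortex arrays and at 7.44 and 8.63 in medulla, against 6.15 and 6.22 on cortex replicates 1 and 2 and 5.82 and 6.18 on medulla replicates 1 and 2. Medulla replicate 3 thus stood above the other low arrays for Mki67 and cortex replicate 3 did not stand far apart. Rrm2, a subunit of ribonucleotide reductase, differed by 1.13 and 1.28 and the replication helicase subunit Mcm5 by 1.24 and 1.07. Of 19 cell cycle genes 3 were higher in both regions and 0 lower, against 0.479% and 0.286% of all genes. In both regions 16 of the 19 had a positive difference, and the medians were 0.67 and 0.65. With a pseudocount of 16, Mki67 was the 1 gene of the list still past 2-fold in both regions.

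Antioxidant and metal-binding genes split. The glutathione peroxidase Gpx2 measured 5.68, 5.93, 6.57 and 8.98 in cortex, with 6.18, 5.75, 6.22 and 8.45 in medulla, 5.30-fold and 4.66-fold higher on the Havcr1-higher array. Heme oxygenase Hmox1 differed by 1.30 and 1.23 from levels near 5. The metallothionein Mt1, a zinc and copper binder, was at 10.66 and 11.71 in cortex, against 10.05 and 11.43 in medulla, and on the Havcr1-lower arrays it already exceeded the 9.15 to 9.41 of replicates 1 and 2. Of 14 genes regulated by NRF2 or kept with them in the list, 3 were higher in both regions and 0 lower. With a pseudocount of 16 the higher count was 2, without Hmox1. In both regions 10 had a positive and 4 a negative difference, and the medians were 0.43 and 0.39. The lowest difference in the list was -2.34 in cortex and -0.72 in medulla, so the list held a large fall in cortex beside the higher genes named here. The aldo-keto reductase Akr1c2 differed by 1.40 and 1.47, and its close paralogs make this value uncertain. It measured 6.49, 6.90, 6.13 and 7.53 across the cortex arrays and 6.52, 6.99, 6.02 and 7.48 across those of medulla, so the Havcr1-lower array was the lowest of each region.

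Lipid and solute genes also stood among the largest shared differences. Angptl4, an inhibitor of lipoprotein lipase, differed by 2.54 and 2.19, and the lipid droplet coat gene Plin2 by 2.22 and 1.42. Slc34a2, a sodium phosphate cotransporter better known from lung and gut than from the proximal tubule, was at 7.27, 7.35, 7.64 and 9.82 in cortex, with 6.96, 7.28, 8.35 and 10.32 in medulla. Slc2a2, the basolateral glucose transporter of the proximal tubule, measured 6.82 and 8.79 in cortex, against 6.65 and 7.96 in medulla. It was the 1 gene of 19 proximal tubule genes that passed in both regions, with 0 lower, and the list's medians were -0.20 and -0.01. Surface receptors were among them too. Pvr, a ligand of nectins and immune receptors, differed by 2.32 and 1.81, Tnfrsf12a, the receptor of the cytokine TWEAK, by 2.35 and 1.79, and the receptor tyrosine kinase Axl by 1.68 and 1.80. Mab21l3 differed by 2.52 and 2.01.

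Most other injury markers did not pass 2-fold in both regions. Of 21 measured injury and dedifferentiation genes 2, Krt18 and Anxa2, were higher by 2-fold in both regions and 0 lower. Over all genes the shares were 0.479% and 0.286%. In both regions 16 of the 21 had a positive difference and 2 a negative one, and the medians were 0.77 and 0.45. Clusterin (Clu), a secreted chaperone chosen here after its values were seen, measured 8.78, 8.64, 9.99 and 11.95 in cortex, with 9.22, 8.61, 11.25 and 12.20 in medulla, a difference of 1.96 and of 0.95. Osteopontin (Spp1), a crystal-binding protein of tubule and urine, was at 9.18 and 11.64 on the cortex arrays of the split and at 11.55 and 11.97 on the medulla arrays. In medulla the Havcr1-lower array was close to the Havcr1-higher one for Spp1, and for Clu it stood well above replicates 1 and 2 but just under 2-fold below the Havcr1-higher array. Lipocalin Lcn2, a urinary injury marker, differed by 0.62 and 1.00 at levels under 6, and the tight junction gene Cldn4 by 1.78 and 0.96.

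On the lower side, the thick ascending limb list held the most members past 2-fold in both regions. This segment reabsorbs salt, calcium and magnesium and secretes uromodulin. Egf, the epidermal growth factor precursor made there, measured 10.48, 10.62, 10.81 and 9.07 in cortex, with 10.51, 10.71, 10.21 and 8.45 in medulla, 3.35-fold and 3.38-fold lower on the Havcr1-higher array. The calcium-sensing receptor Casr was at 8.53, 8.64, 8.72 and 6.48 in cortex, with 8.43, 8.61, 8.15 and 6.48 in medulla. For both genes the other 3 arrays of each region lay close together and the Havcr1-higher array stood apart below them.

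Of 13 thick ascending limb genes 5 were lower by 2-fold in both regions and 1 higher, against 0.286% and 0.479% of all genes. The list's medians were -1.17 in cortex and -0.92 in medulla. With a pseudocount of 16 the counts were 3 and 0, as Cldn10, Bsnd and Cldn19 no longer passed. Besides Egf and Casr the lower ones were the paracellular channel Cldn10 with -1.17 and -1.02, the chloride channel subunit Bsnd with -1.19 and -1.16, and the phosphatase inhibitor Ppp1r1a with -2.01 and -1.11. Slc12a1, the sodium-potassium-chloride cotransporter of this segment, chosen after its values were seen, differed by -1.80 and -0.96 (-1.11 in medulla after quantile normalization, past 2-fold), and Umod by -0.95 and -0.82. The higher gene was Cldn19, a claudin of the magnesium pathway, at 6.96 and 7.99 in cortex, against 7.43 and 9.16 in medulla. The list's highest cortex difference, 1.30, belonged to another member, which did not pass 2-fold in medulla. In both regions 9 of the 13 had a negative difference and 2 a positive one.

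The calcium transport genes of the distal tubule parted ways. Calb1, the cytosolic calcium buffer calbindin, measured 8.98, 10.28, 10.98 and 9.62 in cortex, with 7.74, 10.10, 10.47 and 8.74 in medulla. The basolateral sodium-calcium exchanger Slc8a1 was at 7.64, 8.87, 9.26 and 7.59 in cortex, with 7.17, 8.47, 8.48 and 6.96 in medulla. Both had their highest value on the Havcr1-lower array of each region, and on the Havcr1-higher array they were back within or under the range of replicates 1 and 2. Calb1 was the 1 gene of the 52 lower genes that was not the lowest of its region on the Havcr1-higher array in both regions. Trpv5, the apical calcium entry channel of the same cells, went the other way, at 5.47, 6.53, 8.15 and 9.64 in cortex, with 4.86, 6.59, 7.56 and 8.60 in medulla. Its medulla difference of 1.04 was 0.99 after median centring and 0.98 with a pseudocount of 16, under 2-fold. Tmem52b had the pattern of Calb1 and Slc8a1, with 10.39 and 8.56 in cortex, against 9.76 and 8.35 in medulla. The oxoglutarate receptor Oxgr1, found on intercalated cells and the connecting tubule, differed by -1.97 and -1.14. Of 12 genes of the distal convoluted and connecting tubule 2 were lower in both regions and 1 higher, with medians of -0.47 and -0.31. The overlapping list of 15 vitamin D and calcium genes held 3 lower, Calb1, Slc8a1 and Casr, and 1 higher, Trpv5, with medians of -0.25 and -0.15.

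Both water channels named here passed 2-fold lower in both regions, while most collecting duct genes did not. The vasopressin-regulated water channel Aqp2 measured 9.72, 9.67, 9.36 and 8.03 in cortex, with 10.78, 10.12, 9.41 and 8.12 in medulla. Its basolateral partner Aqp3 was at 7.49 and 6.42 in cortex, against 8.22 and 7.01 in medulla. In medulla the levels of Aqp2 on replicates 1 to 3 were themselves spread over more than 1 log2 unit, so the Havcr1-higher array stood less clearly apart there. Of 13 principal cell genes 2 were lower in both regions and 0 higher, against 0.286% and 0.479% of all genes. The list's medians were -0.57 and -0.61, and with a pseudocount of 16 only Aqp2 remained past 2-fold in both regions. The list's lowest medulla difference, -1.75, belonged to neither water channel named here but to a member that did not pass 2-fold in cortex. Of 11 intercalated cell genes 0 passed in either direction in both regions, with medians of -0.49 and -0.43, the ammonia transporter Rhcg coming nearest with -1.39 and -0.92.

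**Figure D3:**
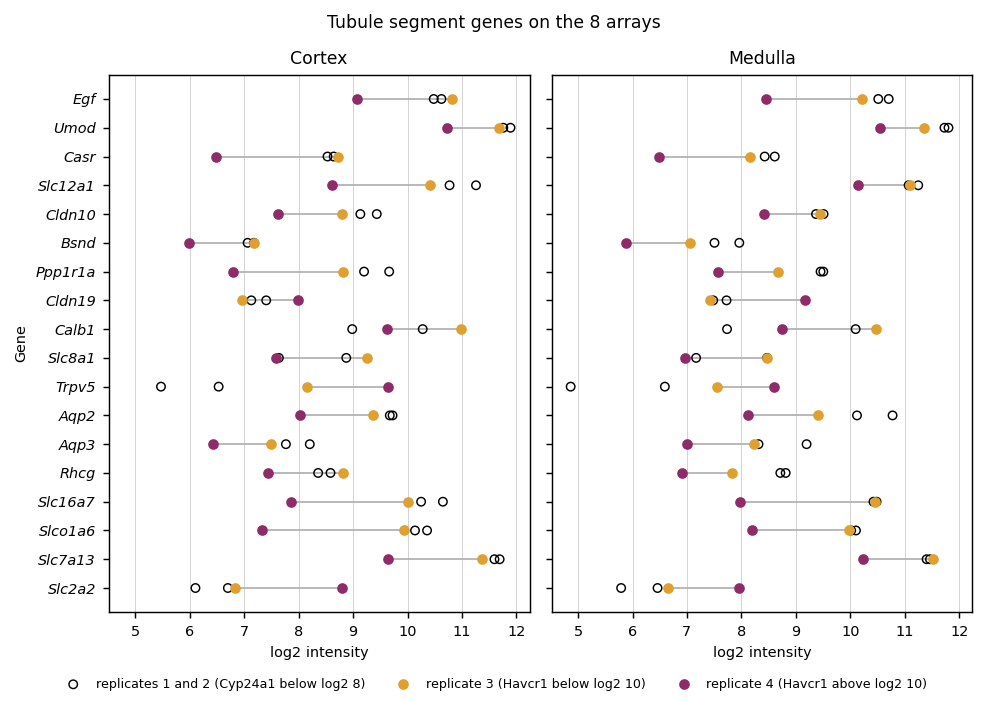
log2 intensity of 18 tubule genes in cortex (left) and medulla (right), with open circles for replicates 1 and 2, orange for the Havcr1-lower and purple for the Havcr1-higher array. Most purple points lie left of the rest, as for Casr at 6.48 in both regions; Cldn19, Trpv5 and Slc2a2 lie right, and Calb1 and Slc8a1 have their orange point rightmost.

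Solute transporters were also among the lower genes. Slc16a7, a monocarboxylate transporter, measured 10.65, 10.25, 10.01 and 7.86 in cortex, with 10.43, 10.48, 10.45 and 7.98 in medulla, 4.44-fold and 5.53-fold lower, which was the largest shared difference on this side. Slco1a6, an organic anion transporter, differed by -2.61 and -1.78. The amino acid transporter Slc7a13, which marks the last proximal segment, was at 11.37 and 9.65 in cortex, against 11.52 and 10.23 in medulla. Slc15a2, which takes up peptides, differed by -2.02 and -1.31. The organic anion transporters Slc22a22, Slc22a24 and Slc22a25 differed by between -1.26 and -1.11 in either region. The Slco1a and Slc22a genes have near-identical copies in the rat, so single members are uncertain. Of 10 proximal straight tubule genes 1, Slc7a13, passed in both regions, but the medians were -0.71 and -0.52, and 0 were higher.

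Several enzymes and regulators shared this direction. The nuclease Dnase1 was at 9.13 and 6.98 in cortex, against 8.25 and 6.13 in medulla, and Rgn, a calcium-binding lactonase, differed by -2.23 and -1.40. The enzymes Cth of cysteine synthesis, Acadsb of branched-chain acid breakdown and Mccc1 of leucine breakdown, lay between -1.28 and -1.08. Id4, an inhibitor of helix-loop-helix factors, differed by -1.76 and -1.91, Tnfrsf11b, the decoy receptor osteoprotegerin, by -1.85 and -1.71, and the phosphodiesterase Pde1a by -1.46 and -1.81. Cacng5 with -2.25 and -1.91, Sbspon with -1.83 and -1.66, Tmem72 with -1.85 and -1.47, Cdkl1 with -1.48 and -1.43, and Tmem207 with -2.34 and -1.38 were also among the lower genes. Ranbp3l had the widest gap between regions on this side, at 7.90 and 6.41 in cortex against 9.30 and 6.39 in medulla.

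The cortex difference was the larger in size for 64 of the 87 higher genes and for 38 of the 52 lower genes, and the median difference was 1.49 in cortex and 1.34 in medulla for the higher genes and -1.48 and -1.28 for the lower genes. On the Havcr1-higher array all 87 higher genes had the highest value of their region in both regions, and 51 of the 52 lower genes the lowest, which the requirement of a 2-fold gap to replicate 3 in part fixes.

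A few genes differed in 1 region alone, with a difference under 0.25 log2 in the other. In cortex 4 genes were higher and 8 lower in this way, and in medulla 4 higher and 4 lower. Igfbp1, which binds insulin-like growth factors, measured 6.73, 6.81, 7.65 and 9.82 in cortex, with 7.77, 7.11, 9.47 and 9.64 in medulla, so that both medulla arrays of the split were already high. The lactate transporter Slc5a12 was at 6.16 and 7.90 in cortex, against 6.69 and 6.88 in medulla. In medulla the secretin receptor Sctr differed by 1.39 against 0.17 in cortex. The BMP antagonist Grem1 and the fibroblast growth factor Fgf7 were lower in medulla, by -1.21 and -1.09, and Fgf7 was high on medulla replicate 3 alone, at 6.74 against 4.68 to 5.65 elsewhere. The mitochondrial calcium-binding gene Efhd1 was lower in cortex alone, with -1.09 against 0.12.

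Among markers of other tissues and cell types, the erythrocyte list had the lowest median in cortex. That list also takes in Slc4a1, which the intercalated cell list holds too. The lists of urothelium, adipocytes, skeletal muscle and adrenal cortex held 10, 10, 6 and 7 measured genes, with 0 past 2-fold in both regions and medians between -0.07 and 0.09. With 0.479% of all genes higher and 0.286% lower in both regions, lists this small would often hold 0. The 7 urea and osmolyte genes had 0 past 2-fold in both regions and medians of 0.05 and -0.17. Endothelium had medians of -0.20 and -0.13 and podocytes of -0.28 and -0.12, both with 0 genes past 2-fold in both regions. Over 4 erythrocyte genes the mean was 6.87, 6.78, 6.49 and 5.80 in cortex replicates 1 to 4, with 6.71, 7.07, 5.98 and 6.04 for medulla, and the median difference was -0.79 in cortex and 0.05 in medulla. The globin gene Hbb-b1 differed by -1.12 in cortex and 0.06 in medulla, and the part of blood in the other differences was not tested.

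Of the metabolic and stress lists that follow, only the stone matrix list held a gene past 2-fold in both regions. Over all genes 0.479% were higher and 0.286% lower in both regions, so a list of this size would often hold 0. Fatty acid oxidation had 0 of 16 genes past 2-fold in both regions and medians of -0.16 and -0.18, glycolysis and hypoxia 0 of 14 with 0.07 and 0.10, and oxalate metabolism and transport 0 of 13 with -0.17 and -0.14. Heat shock proteins had 0 of 11 with 0.11 and 0.07, the endoplasmic reticulum and integrated stress response 0 of 14 with 0.19 and 0.35, and p53 targets 0 of 9 with 0.41 and 0.18. Stone matrix proteins had 1 of 14 higher, Anxa2, and medians of 0.16 and 0.15.

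**Figure D4:**
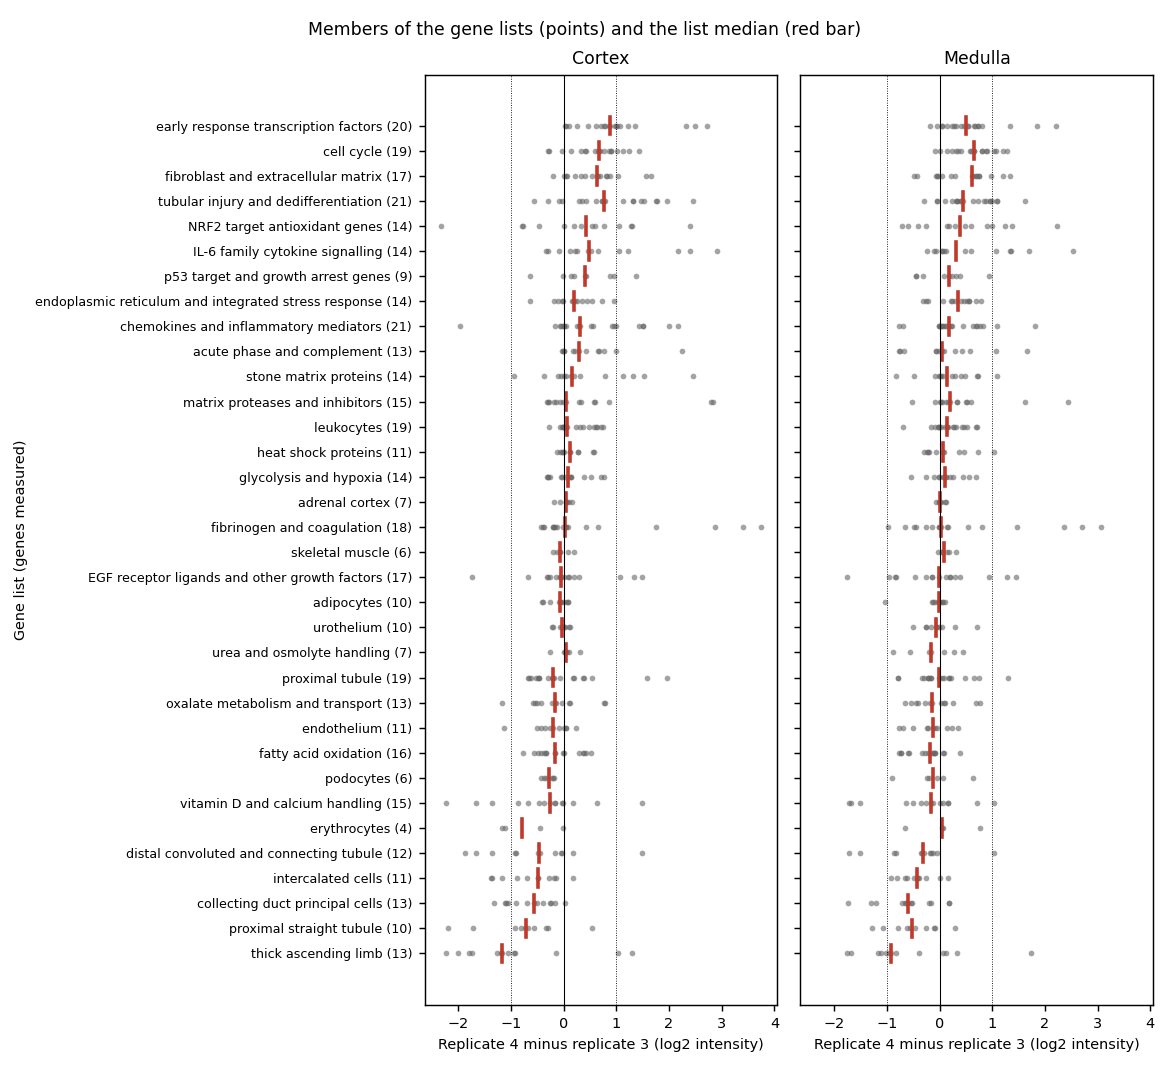
Difference between the Havcr1-higher and Havcr1-lower array (log2 intensity) for each measured gene of 34 lists, in cortex (left) and medulla (right), with the list median as a red bar and dotted lines at 2-fold. Early response factors have the highest cortex median, 0.87, and the thick ascending limb the lowest, -1.17, and the fibrinogen chains are the 3 rightmost points of a list whose median is 0.02.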

How the data were processed

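The deposited values are linear intensities of probe sets on 8 arrays, in 1 table of the authors; Affymetrix Expression Console and RMA are named in the submitters' processing notes, with versions not given in the sources used here. Values ran from 17.3 to 6229 with nearly equal array medians, were read as linear and normalized between arrays, and were logged (log2) with no pseudocount. Adding a pseudocount compresses the folds of dim genes. The lower quartile of an array was 4.44 to 4.48 log2 intensity, and folds that start near it may be understated. The number of arrays limits the precision.

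Of 29870 probe sets, 18511 had 1 gene symbol in the platform annotation, 575 several and 10784 are unnamed here; 18394 matched the RefSeq table of GRCr8 by Entrez identifier. The brightest of a gene's probe sets by mean was kept (291 genes had several), giving 18166 genes, and 18164 without Havcr1 and Cyp24a1, with no filter on dim genes. Arrays were grouped by labelled region and split by the rule on Cyp24a1 and Havcr1. Each difference is the Havcr1-higher minus the Havcr1-lower array of a region, and a gene was counted at 2-fold or more in both regions. No test of the difference between the sides was run; Dixon's critical value was used only to mark arrays that stand apart. The counting was run on simulated data with added shifts larger than the threshold, which checks the code and not the differences found here. Nothing in the labels says that samples came from separate animals.

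The arrays, the members and the 34 gene lists were chosen with earlier results of these data known. Genes were named as the 15 largest shared differences each way by the smaller regional value, up to 3 per list, up to 5 per direction in 1 region alone, and Fga, Fgb, Fgg, Spp1, Lcn2 and Umod; the text also takes other members past 2-fold in both regions, chosen after their values were seen, and leaves out genes of the rule that illustrate nothing further. Alternatives were quantile normalization, median centring, the mean of probe sets, leaving out the dimmest 30% of genes, a pseudocount of 16, other fold thresholds and comparing arrays across regions. Python 3.11.15, numpy, pandas and matplotlib 3.10.9 were used.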

Additional observations from a re-analysis of the deposited data

Results flagged for a closer look

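For the 95 named genes, the 4 arrays of each region were checked for 1 array far from the others. The measure was its gap to the nearest array as a share of the region's whole range, flagged above Dixon's 95% critical value for 4 arrays. Chance passes that value in about 1 of 20 groups only where genes and arrays are chosen without regard to their values. Here both were chosen by their values, so that rate is no baseline for the count. The critical value was passed in 65 of 190 gene and region groups. In all 65 the array was the Havcr1-higher one, which the choice of the arrays and of the genes favours, as it favours the count itself.

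In cortex, replicate 4 stood apart as the highest array with a gap share of Actn1 0.89, Atf3 0.942, Axl 0.94, C3 0.907, Cldn4 0.945, Csrp3 0.897, Fgg 0.904, Hbegf 0.849, Hmox1 0.889, Il11 0.874, Il19 0.849, Il24 0.899, Krt18 0.881, Lcn2 0.834, Lif 0.948, Mki67 0.891, Myc 0.911, Myh9 0.847, Osmr 0.881, Plin2 0.935, Plrg1 0.915, Pvr 0.898, Slc34a2 0.855, Socs3 0.926, Timp1 0.957, Tnfrsf12a 0.833 and Tubb5 0.884. In cortex, replicate 4 stood apart as the lowest array with a gap share of Bsnd 0.902, Cacng5 0.882, Casr 0.917, Cth 0.865, Dnase1 0.839, Efhd1 0.847, Mccc1 0.897, Slc15a2 0.964, Slc7a13 0.84 and Slco1a6 0.86.

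In medulla, replicate 4 stood apart as the highest array with a gap share of Atf3 0.842, Axl 0.841, Gdf15 0.89, Hbegf 0.899, Hmox1 0.877, Il11 0.881, Il19 0.907, Il24 0.956, Lcn2 0.935, Myc 0.858, Myh9 0.862, Plin2 0.846, Pvr 0.873 and Sctr 0.893. In medulla, replicate 4 stood apart as the lowest array with a gap share of Acadsb 0.853, Cacng5 0.914, Cdkl1 0.887, Cldn10 0.872, Cth 0.858, Id4 0.852, Mccc1 0.883, Slc12a1 0.839, Slc15a2 0.912, Slc16a7 0.977, Slc22a22 0.867, Slc22a25 0.862, Slc7a13 0.91 and Slco1a6 0.93.

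The regions gave opposite signs for 4 of the named genes, and the difference between regions was not tested. Efhd1 differed by -1.09 in cortex and 0.12 in medulla, Fgf7 by 0.15 and -1.09, the mucin-like gene Glycam1 by -0.17 and 1.21, and Hbb-b1 by -1.12 and 0.06.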

How the results depend on the processing

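Counts moved most with the fold threshold. At 1.5-fold, 326 genes were higher and 275 lower in both regions, with 595 higher and 526 lower in cortex and 597 higher and 519 lower in medulla. At 3-fold the counts were 22 and 9 in both regions, 49 and 33 in cortex, and 27 and 15 in medulla. Requiring both Havcr1-higher arrays to lie 2-fold beyond both Havcr1-lower arrays, whichever region they came from, kept 61 of the 87 higher genes and 30 of the 52 lower genes. Quantile normalization, median centring, the mean of probe sets and leaving out dim genes gave 82 to 87 higher and 52 to 60 lower genes, and a pseudocount of 16 gave 64 and 39, which took members from the IL-6 family, cell cycle, antioxidant, thick ascending limb, distal tubule, principal cell and vitamin D lists. The differences of the 95 named genes in the 2 regions shifted by at most 0.15 log2 under quantile normalization and 0.05 under median centring. With probe set means the largest shift was 0.37, and with the pseudocount 0.56. These shifts are under 1.5-fold in 190 of 190 cases each. Small differences could still change by a large share, and some genes, such as Il11 and Clcf1, fell under 2-fold with the pseudocount. With 1 array on each side of a region no array could be left out, so every difference rests on single arrays. No paired analysis was possible because the labels give no replicate number shared by the regions and the result comes from no test.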

Other observations

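Probe sets with no gene symbol or with several were not used above. Of 11359 such probe sets, 12 (0.106%) were at least 2-fold higher and 11 (0.0968%) at least 2-fold lower on the Havcr1-higher array in both regions. The shares of the genes compared were 0.479% and 0.286%. Those count genes, each by its brightest probe set, and brightness was not matched, so the 2 pairs of shares are not a like comparison.

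The genes nearest the 2-fold threshold were Nrg1 with 1.33 in cortex and 1.00 in medulla just inside and Mcm3 with 0.98 and 1.10 just outside on the higher side, and Matn1 just inside, barely past 2-fold in cortex and at -1.44 in medulla, and Fmo4 just outside, with -1.23 and -0.99, on the lower side. They were chosen by that place alone.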
